A study of Mus musculus with 12 samples.

Results

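Ribosomal protein genes of the cytosolic ribosome were followed in splenic B cells of mice given a CpG oligodeoxynucleotide (ODN), the oxidative phosphorylation inhibitor IM156, or both. The genes were taken from the count table by symbol alone: Rpl or Rps followed by a digit, Rplp0 to Rplp2 and Rpsa, leaving out the S6 kinases and symbols that contain "-ps". This gave 88 of 23282 rows, 53 of the large subunit (Rpl) and 35 of the small subunit (Rps). Of these, 9 were listed as paralogs of a parent gene and 1, Rps19bp1, encodes a binding partner of Rps19. The remaining 78 genes, 47 Rpl and 31 Rps, are called the core genes here. Among the 47 is Rpl37rt, which is annotated as a transcribed processed pseudogene. After the filter on low counts 86 of the 88 were among the 11857 genes tested. Rpl3l, a muscle paralog of Rpl3, had no count in any library, and Rpl10l, a testis paralog of Rpl10, had 0 to 5 counts a library.

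All mice were labelled as wild-type C57BL/6 animals 7 weeks old, although the design text of the series calls them lupus-prone. The ODN mice received 50 µg of class B CpG-ODN 1826, a ligand of the DNA sensor TLR9, intraperitoneally on days 1 and 3. IM156 was given by the same route on days 0 and 2, at 30 mg/kg, the ODN+IM156 mice received both agents on these schedules, and the Control mice have the treatment entry "None". Spleens were taken on day 4, and each of the 4 groups has 3 libraries. A vehicle for the Control mice, the sex and number of the animals, any pooling and the way the B cells were purified are not given in the sources used here. What the p-values measure is then the spread among the 3 libraries of a group, part of which may be technical.

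A cytosolic ribosome joins a small subunit, which reads the mRNA, to a large subunit, which forms the peptide bond and releases the new chain through a tunnel. Each subunit is built on ribosomal RNA with many small basic proteins, nearly all present once per ribosome, so their genes are usually expressed together. Their mRNAs begin with a run of pyrimidines, the 5′ terminal oligopyrimidine (TOP) motif, which places their translation and stability under mTORC1 and the RNA-binding protein Larp1. B cells enlarge and build ribosomes when a Toll-like receptor or the antigen receptor activates them.

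The sequence around the annotated start is shown for 10 genes because the results below turn on them: 5 with large differences between ODN and Control, 3 with small ones, and the copies Rpl36a and Rpl36al. Each line gives 30 bases before and 20 bases after the start in RefSeq (GRCm38.p6), 5′ to 3′ on the gene's strand, with capitals marking the longest qualifying pyrimidine run. Such a run was defined as C followed by at least 4 bases that are each C or T, its first base lying within 10 bases of the start.
Rpl41, chr10:128549149-128549198, minus strand: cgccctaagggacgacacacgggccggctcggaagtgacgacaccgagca
Rpl35, chr2:39005112-39005161, minus strand: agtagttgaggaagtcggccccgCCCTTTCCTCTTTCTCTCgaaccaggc
Rps12, chr10:23787190-23787239, minus strand: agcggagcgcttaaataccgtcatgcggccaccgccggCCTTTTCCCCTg
Rps26, chr10:128626487-128626536, minus strand: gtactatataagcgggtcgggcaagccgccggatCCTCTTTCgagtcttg
Rpl39, chrX:37085203-37085252, minus strand: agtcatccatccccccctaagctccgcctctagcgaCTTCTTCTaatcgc
Rplp2, chr7:141447621-141447670, plus strand: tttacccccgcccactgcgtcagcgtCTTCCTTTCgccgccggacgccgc
Rps27, chr3:90213629-90213678, minus strand: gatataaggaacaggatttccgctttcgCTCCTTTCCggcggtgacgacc
Rps27rt, chr9:114982720-114982769, minus strand: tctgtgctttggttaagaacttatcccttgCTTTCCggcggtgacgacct
Rpl36a, chrX:134585624-134585673, plus strand: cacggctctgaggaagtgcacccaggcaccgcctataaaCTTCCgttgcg
Rpl36al, chr12:69184048-69184097, minus strand: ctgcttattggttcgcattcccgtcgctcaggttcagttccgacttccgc

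RefSeq windows, 250 bases before to 50 bases after the start, were found for 67 of the 88 genes, among them 58 core genes. The pyrimidine run was present in 29 of the 58 core windows (50%) and in 29.7% of all 32851 windows in the table. CCGGAAG, the site read by ETS factors such as GABP, was present on either strand in 39.7% of core windows and in 8.86% of all windows. TATAAA on either strand was present in 8.62% against 13.6%, and AAGATGG, a YY1-type site, in 13.8% against 6.34%. The motifs are letter matches in these windows and not measured sites. By subunit, the pyrimidine run was in 48.6% of 35 Rpl and 52.2% of 23 Rps core windows, CCGGAAG in 37.1 and 43.5%, TATAAA in 8.57 and 8.7%, and AAGATGG in 8.57 and 21.7%, the last from 3 and 5 windows. These differences were not tested. Rps27, Rps27rt and Rplp2, which had small differences, hold a run of the same kind as Rpl35 and Rps12, which had large ones, and Rpl41 has none in this window. The starts are annotated and were not measured here. Any relation between a run and the size of a difference was not tested.

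The libraries held 9650775 to 11532525 counts, and member rows took 9.29 to 15.3% of them. Among the libraries, ODN replicate 2 stood apart in the ribosomal RNA row Rn45s, which took 1.46% of its counts and 4.78 to 9.63% in the other 11. ODN replicate 3 stood apart in Xist, which coats the silenced X chromosome of female cells. Its level there was 0.0957 CPM (counts scaled to a common library size by the trimmed mean of M-values, TMM) against 924 to 1320 in all others. The Y-linked genes Ddx3y, Eif2s3y, Kdm5d and Uty had almost no counts in any library, this one included. What these values say about the sex of the animals was not tested. The ODN results are also given without ODN replicate 2 or 3. B-cell markers were present in every group, with 10 markers summing to 8630 to 10600 CPM and 0 of 10 called between ODN and Control. Markers of other cells moved with ODN: 7 of 10 platelet markers were called higher (summed CPM 47.8 to 71.7 in Control, 133 to 229 in ODN) and 5 of 9 tested erythroid markers were called lower (690 to 886 against 116 to 266). Natural killer markers summed to 4.45 to 6.1 CPM in Control, with Gzmb and Ncr1 at 0, and to 18.1 to 25.8 in ODN. Neutrophil markers summed to 5.62 to 8.75 in Control, with Elane and Lcn2 at 0, and to 23.5 to 87.8 in ODN. Of the monocyte and macrophage markers 3 of 10 were called higher, and of the tested dendritic cell markers 1 of 8, where 7.34% of all genes were. No tested T-cell or plasma-cell marker was called. With IM156 alone the sums were 101 to 578 CPM for erythroid, 65.2 to 68.1 for platelet, 3.41 to 6.08 for natural killer and 2.59 to 5.71 for neutrophil markers. With both agents they were 75.7 to 146, 133 to 178, 10.4 to 17.5 and 19.4 to 24.5. None of these platelet or erythroid markers was called in IM156 against Control or in ODN+IM156 against ODN. In ODN+IM156 against Control 6 platelet markers were called higher and 5 erythroid markers lower, and against IM156 the numbers were 5 and 3. Monocyte and macrophage markers called higher numbered 2 against Control and 0 against IM156, and dendritic cell markers 3 and 2. The part of these cells in the results below was not tested. In bulk RNA a change in the number of cells of a type and a change in RNA per cell cannot be told apart.

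Both subunits were highest in the ODN libraries. Rpl rows took 5.48, 5.93 and 5.36% of all counts in Control replicates 1 to 3, and 7.82, 8.95 and 7.45% in ODN. Their shares were 5.84, 6.18 and 6.63% with IM156 and 6.19, 6.85 and 6.82% with both agents. Every ODN library lay above every library of the other 3 groups. Rps rows showed the same order at a lower level, from 3.93 to 4.26% in Control, 4.19 to 4.86% with IM156 and 4.4 to 4.83% with both, to 5.25 to 6.37% with ODN. With Rn45s left out of the totals, members took 10 to 11.1% in Control, 13.9 to 15.5% in ODN, 10.9 to 12.1% with IM156 and 11.5 to 12.7% with both.

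**Figure D1:**
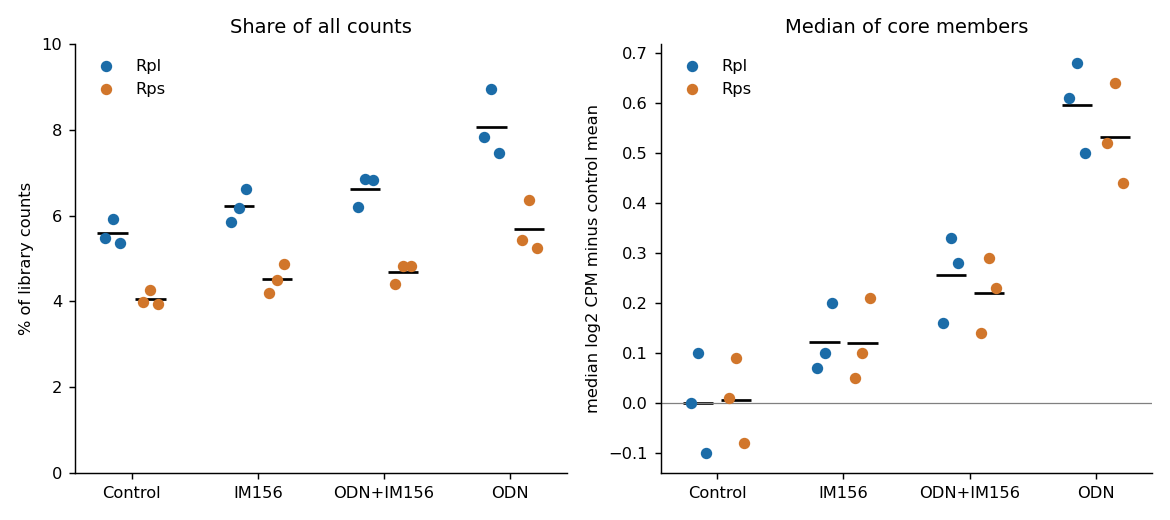
Share of library counts in Rpl and Rps rows (left, %) and median log2 CPM of core genes minus the Control mean (right), by group; each point is 1 library and each bar the mean of 3. The ODN libraries sit above all others in both subunits, and the IM156 and ODN+IM156 groups overlap.

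The share of core genes above their Control mean gives the same picture gene by gene. All 78 core genes were above it in each ODN library, and 76 to 78 were in the ODN+IM156 libraries. With IM156 alone the numbers were 59, 73 and 75, and in the Control libraries themselves 42, 71 and 0. The Control libraries thus differed among themselves in the level of the whole family, replicate 3 being the lowest, and the pooled standard deviation of the core median between libraries of a group was 0.0865 on the log2 scale.

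In ODN against Control, transcripts of nearly the whole ribosome rose together. Of the 78 core genes 77 were called higher at an adjusted p below 0.05 (edgeR quasi-likelihood test, Benjamini-Hochberg adjustment over all 11857 genes), where 7.34% of all genes tested were called higher. None was called lower, where 3.25% of all genes were. All 47 Rpl and 30 of 31 Rps core genes rose, Rps27 being the exception, and with the paralogs 80 of 86 tested members rose. The median log2 fold change over core genes was 0.56 (1.47-fold), against -0.00 over all genes tested. For 77 of 78 core genes all 3 ODN libraries lay above all 3 Control libraries, which held for 13.2% of all genes. At an unadjusted p below 0.05 the same number of core genes, 77, were higher, against 14.1% of all genes.

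The count was 80 of 86 without ODN replicate 3 and 79 without replicate 2, with core medians of 0.58 and 0.51. Leaving out each of the 12 libraries in turn gave 74 to 81 called members, the lowest without Control replicate 3. The shares of all genes called in these fits are not set beside these counts.

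The gene with the highest fold change was Rpl41, which encodes a very small peptide that bridges the subunits. Its level was 1476, 1569 and 1373 CPM in Control, 2787, 2878 and 2246 in ODN, 1484, 1617 and 1771 with IM156, and 1763, 2145 and 1905 with both. The ODN libraries were above all others, and the ODN+IM156 range overlapped that of IM156 alone. ODN against Control gave a log2 fold change of 0.84 (SE 0.106, adjusted p = 6.6e-05, edgeR).

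Among small subunit genes Rps20 and Rps12 had the highest values. Rps20, of the subunit head, stood at 3449, 3866 and 3446 CPM in Control and 6496, 6954 and 5477 in ODN, a log2 fold change of 0.81 (SE 0.112, edgeR adjusted p = 0.000138). Rps12, of the beak, stood at 446, 471.7 and 422.7 CPM in Control and 833.7, 827 and 685.5 in ODN, also 0.81 (SE 0.0918, edgeR adjusted p = 2.27e-05). In both genes the groups did not overlap. They lay 3.8 and 3.71 scaled median absolute deviations (MAD) above the Rps median, and Rps26 lay 3.03 above it. The scaled MAD of the core Rps genes, 0.076, was below the median SE of their fold changes, 0.0937. For the core Rpl genes it was 0.150, and none of them lay over 3 from their median, Rpl41 included. Distances in scaled MADs are thus a description and not a test.

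Proteins around the peptide exit tunnel were followed through 9 genes, all of which rose, with a median of 0.59. Rpl35, which lies beside the tunnel mouth where the signal recognition particle docks, rose by 0.82 (SE 0.113), and Rpl39, which lines the tunnel wall, by 0.77 (SE 0.0866). Rpl4, whose loop reaches into the tunnel, and Rpl19 were at the lower end with 0.47 and 0.48.

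The peptidyl transferase centre and the tRNA exit side were represented by Rpl3, Rpl8, Rpl10, Rpl10a and Rpl36a, all 5 higher, with a median of 0.73. Rpl36a, near the exit-site tRNA, stood at 363.1, 401.2 and 361.3 CPM in Control and 700.1, 654.7 and 565.4 in ODN, and rose by 0.77 (SE 0.0946). Rpl10a, of the L1 stalk, rose by 0.75. Rpl8, an RNA-binding protein close to the catalytic centre, rose least of the 5, by 0.39.

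Genes of the P stalk, the arm that recruits elongation factors, all rose, but by unequal amounts. Rplp0, the base of the stalk, stood at 943.8, 827.6 and 848.8 CPM in Control and 1542, 1568 and 1325 in ODN, a log2 fold change of 0.76 (SE 0.0968). Rplp1 rose by 0.60 (SE 0.0901) and was the most abundant member, with a Control mean of 5562 ± 346 CPM (SD, n = 3). Rplp2, its partner in the stalk heterodimer, stood at 997, 746.9 and 835 CPM in Control and 1201, 1076 and 1069 in ODN, a log2 fold change of 0.38 (SE 0.0965). Its groups did not overlap, and the Control values were widely spread, with replicate 1 the highest. The differences between genes were not tested.

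The 5S ribonucleoprotein genes Rpl5 and Rpl11, whose free proteins also bind Mdm2, rose by 0.50 (SE 0.107) and 0.57 (SE 0.107). On the small subunit, 8 of 8 genes along the mRNA path and 10 of 10 genes of the head and beak were called higher, with medians of 0.55 and 0.60. Rps26, at the mRNA exit, rose by 0.76 (SE 0.0995) and Rps2, at the mRNA entry, by 0.44 (SE 0.0923). In the head, Rps18 rose by 0.69 (SE 0.102), while Rps15 and Rps19 each rose by 0.39.

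**Figure D2:**
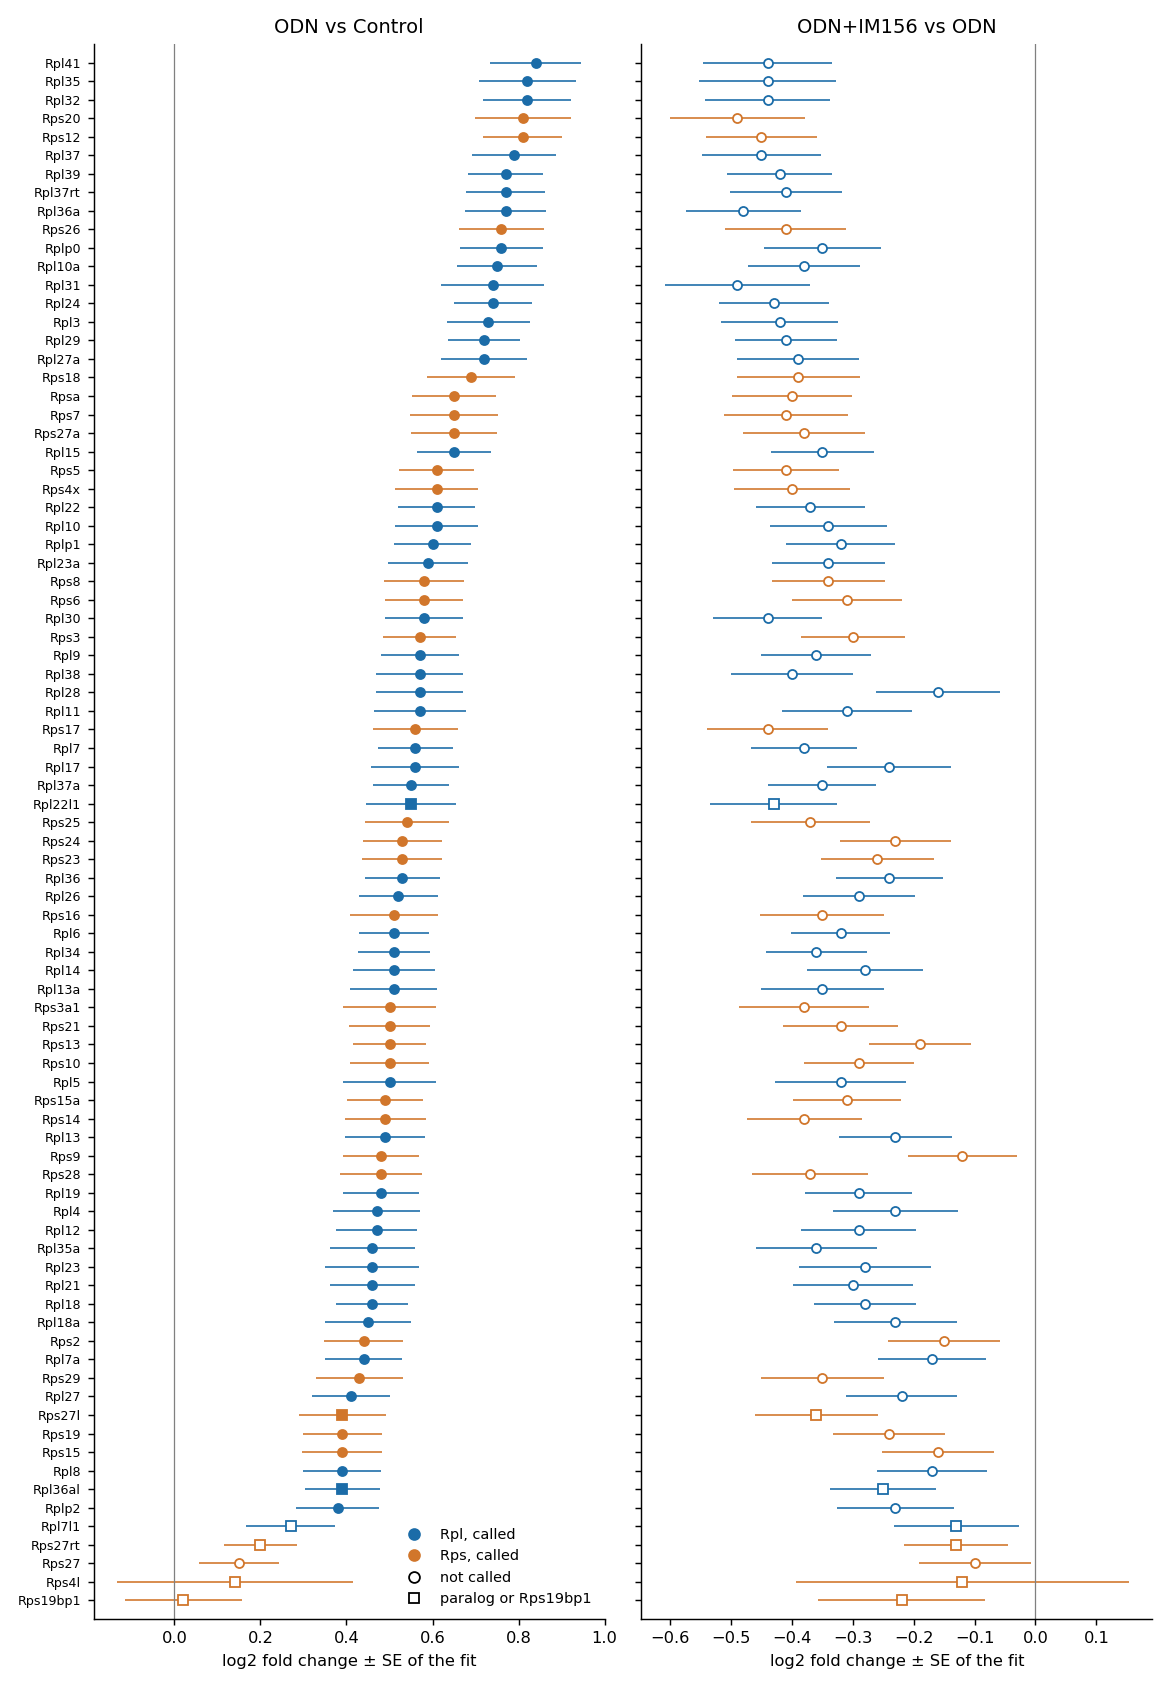
Log2 fold change with the SE of the edgeR fit for the tested members, ordered by ODN against Control (left), with ODN+IM156 against ODN (right); filled symbols were called at an adjusted p below 0.05, and squares are paralogs or Rps19bp1. Rpl39l, with 0 to 16 counts a library, and 1 member not reported here are left out. All symbols lie right of 0 on the left side and left of 0 on the right side, and filled symbols occur on the left side only.

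Large and small subunit genes differed little in their centre and more in their spread. The Rpl median was 0.57 (range 0.38 to 0.84, scaled MAD 0.150) and the Rps median 0.53 (range 0.15 to 0.81, scaled MAD 0.076). The upper quartile was 0.73 for Rpl and 0.61 for Rps, while the lower quartiles were 0.49 and 0.48, so the subunits separated at the upper end. Within libraries, the Rpl median minus the Rps median, relative to Control, was 0.093, 0.039 and 0.057 in ODN and -0.003, 0.004 and -0.013 in Control. The 3 ODN values lay above the 3 Control values, and the pooled SD between libraries was 0.0168. With both agents the values were 0.021, 0.037 and 0.047, also above Control and overlapping ODN. With IM156 alone they were 0.011, 0.001 and -0.011. The ratio of Rpl to Rps counts was 1.42 to 1.45 in ODN, 1.43 in each library with both agents, and 1.38 to 1.41 in Control and with IM156. From the fitted fold changes of ODN against Control the gap between the medians was 0.039. It ran from 0.015 to 0.072 as single libraries were left out, with 0.017 without ODN replicate 3.

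Rps27 was the core gene that did not pass the test. It encodes a zinc-finger protein of the small subunit, and stood at 592.6, 622.5 and 539.1 CPM in Control and 600.3, 637.4 and 711.5 in ODN. The ranges overlapped, and the log2 fold change was 0.15 (SE 0.092, edgeR adjusted p = 0.319), 4.96 scaled MADs below the Rps median. Rps27rt, a retrotransposed copy, stood at 1057, 1046 and 932 CPM in Control and 1067, 1201 and 1215 in ODN, with 0.20 (SE 0.0857, edgeR adjusted p = 0.152). Its ranges did not overlap but lay close to each other. The 2 transcripts share 341 identical bases that include the 3′ end of Rps27, where the reads of this library type lie, so their reads cannot be told apart. Their summed level was 1596 ± 109 CPM in Control, 1811 ± 132 in ODN, 1702 ± 50.5 with IM156 and 1670 ± 104 with both (SD, n = 3 each). The Control and ODN ranges of the sum overlapped, at 1471 to 1669 and 1667 to 1927 CPM. Of the other core genes, Rplp2 had the lowest fitted value, 0.38.

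The paralog Rps27l, a p53 target, was low and rose. It stood at 62.91, 58.53 and 61.1 CPM in Control and 77.8, 87.08 and 74.25 in ODN, a log2 fold change of 0.39 (SE 0.101, edgeR adjusted p = 0.0172). This call was lost with 3 single libraries left out, where the highest adjusted p was 0.0819, and with scaling by library totals (adjusted p = 0.0636, edgeR).

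Rpl36al, a paralog of Rpl36a, also rose. It stood at 333.2, 408.9 and 340.4 CPM in Control and 472.2, 491.9 and 450.3 in ODN, a log2 fold change of 0.39 (SE 0.0876) against 0.77 for Rpl36a. The best alignment of their transcripts covers 332 bases at 87.7% identity. The call of Rpl36al was lost when the Control and ODN groups were fitted alone (edgeR adjusted p = 0.0728). The difference between parent and copy was not tested.

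The other paralogs are given beside their parents, with no test of the differences. Rpl22l1, which can replace Rpl22, rose by 0.55 (SE 0.104) and Rpl22 by 0.61 (SE 0.0896). Rpl7l1, a nucleolar relative of Rpl7, had a log2 fold change of 0.27 (SE 0.104, edgeR adjusted p = 0.101) where Rpl7 rose by 0.56. Without Control replicate 1, Rpl7l1 had 0.41 and was called (edgeR adjusted p = 0.0112).

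Rps4l is annotated as a transcribed processed pseudogene. At 5.7 ± 0.62 CPM in Control (SD, n = 3), it had 0.14 (SE 0.274), where its parent Rps4x on the X chromosome rose by 0.61. Rpl39l had 0.78 with an SE of 0.914 at 0 to 16 counts a library, too few to show a difference of the size of its parent's. Rps19bp1, which is no ribosomal protein, had 0.02 (SE 0.136). Rpl37 and Rpl37rt, annotated as a transcribed processed pseudogene and counted here as core by its symbol, share 344 bases at 99.7% identity, and rose by 0.79 and 0.77.

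**Figure D3:**
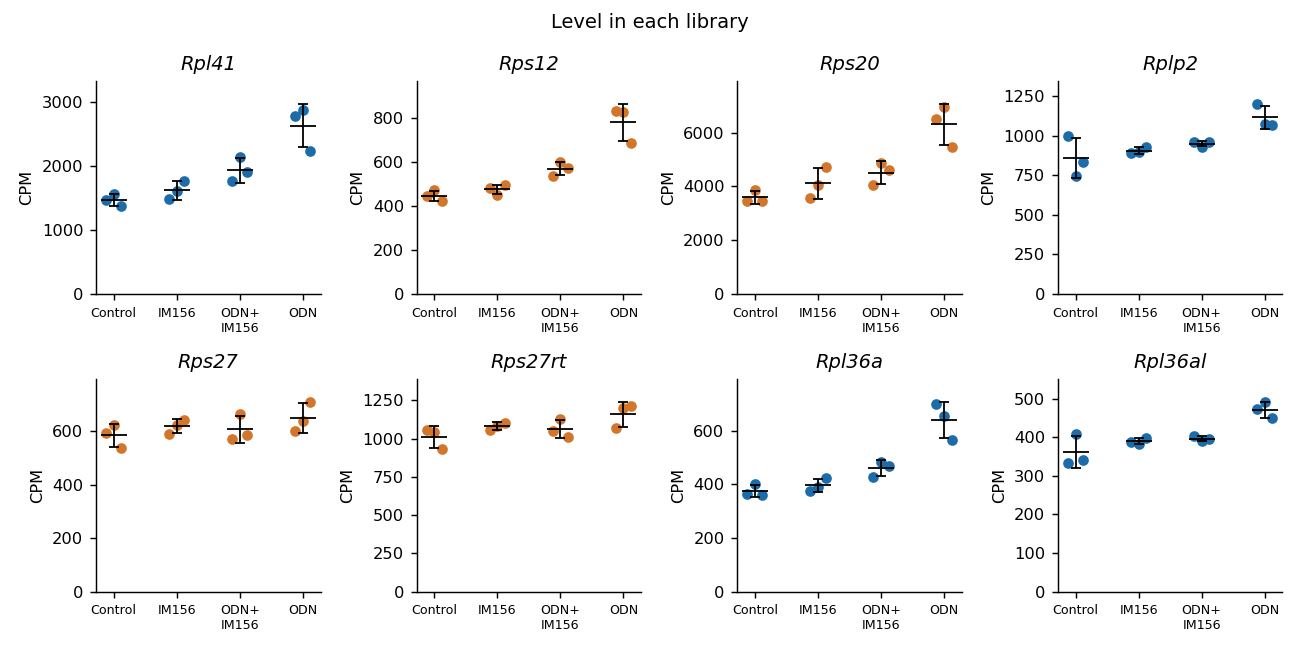
CPM of 8 genes in each library (points) with the group mean and SD (bars, n = 3) on axes that start at 0. Rpl41, Rps12, Rps20, Rpl36a, Rplp2 and Rpl36al are highest in ODN with no overlap with Control, while the ODN and Control ranges of Rps27 overlap and those of Rps27rt lie close, with 1057 CPM the highest Control and 1067 the lowest ODN value.

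IM156 alone gave small positive differences that did not pass the test. No member was called against Control, where 0% of all genes were called in either direction by edgeR and 1 gene in each direction by DESeq2. At an unadjusted p below 0.05, 5 of 78 core genes were higher and none lower, where 1.8% of all genes were higher and 1.91% lower. The medians were 0.14 for both subunits, and 75 of 78 core genes had positive values, against 50% of all genes. All 3 IM156 libraries lay above all 3 Control libraries for 13 of 78 core genes, against 5.16% of all genes. The core median of 0.14 was 0.07 without IM156 replicate 3 and 0.08 without Control replicate 3. The pooled SD of 0.0865 describes single libraries and is not the error of this difference. Relative to their own mean, the Rpl medians of the Control libraries alone ran from -0.10 to 0.10.

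The core genes with the smallest p-values in this comparison included Rps19, Rpl35 and Rpl13a. Rps19, needed for processing of the small subunit RNA, had a log2 fold change of 0.23 (SE 0.0918, edgeR adjusted p = 0.999). Rpl35 had 0.25 (SE 0.112) and Rpl13a, known also for a role in translation control after interferon, had 0.22 (SE 0.101). Rpl39l, at 0, 1 and 0 counts with IM156 and 0, 5 and 13 in Control, had an unadjusted p = 0.0223 from the edgeR fit, with so few counts that its size is not read.

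In ODN+IM156 against ODN every core gene had a negative fold change, and none passed the test. The smallest adjusted p among members was 0.0619 (edgeR), and over all genes 6 (0.0506%) were called higher and 2 (0.0169%) lower. The median was -0.35 in both subunits (0.786-fold over all core genes, range -0.49 to -0.10), against -0.01 over all genes tested. At an unadjusted p below 0.05, 70 of 78 core genes were lower, 44 Rpl and 26 Rps, against 9.44% of all genes, and none was higher, against 6.75%. For 66 of 78 core genes all ODN+IM156 libraries lay below all ODN libraries, against 10% of all genes. For none did they all lie above, against 9.07%.

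Whether these genes were called depended on the tool and on the libraries. Members called lower numbered 56 with DESeq2, 31 with edgeR's robust option, 51 with no filter on low counts and 54 without ODN replicate 3. Over all genes the numbers called lower rose too, from 2 to 230, 82, 445 and 527 in that order. Leaving out any other single library gave 0 members. The core median stayed between -0.39 and -0.29 as single libraries were left out.

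Rpl36a and Rps12 show the size of these differences. Rpl36a was at 427.1, 484.7 and 468.5 CPM with both agents, below the 565.4 to 700.1 of ODN and above the 361.3 to 401.2 of Control. Its log2 fold change against ODN was -0.48 (SE 0.0941, edgeR adjusted p = 0.0619). Rps12 was at 538.6, 600.2 and 575.6 CPM, again between the ranges of Control and ODN, with -0.45 (SE 0.0914) against ODN.

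Rpl30, whose yeast counterpart binds its own transcript, was closer to Control. It stood at 372.3, 398.4 and 341.2 CPM in Control, 548.6, 613.8 and 496.1 in ODN and 404.9, 406.5 and 414.3 with both agents. Its value against ODN was -0.44 (SE 0.0896, edgeR adjusted p = 0.0619), and against Control 0.14 (SE 0.0897). At the other end, Rps9, at the mRNA entry, had -0.12 (SE 0.0889), Rpl28 had -0.16 (SE 0.102), and Rps27 had -0.10 (SE 0.092) against ODN.

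**Figure D4:**
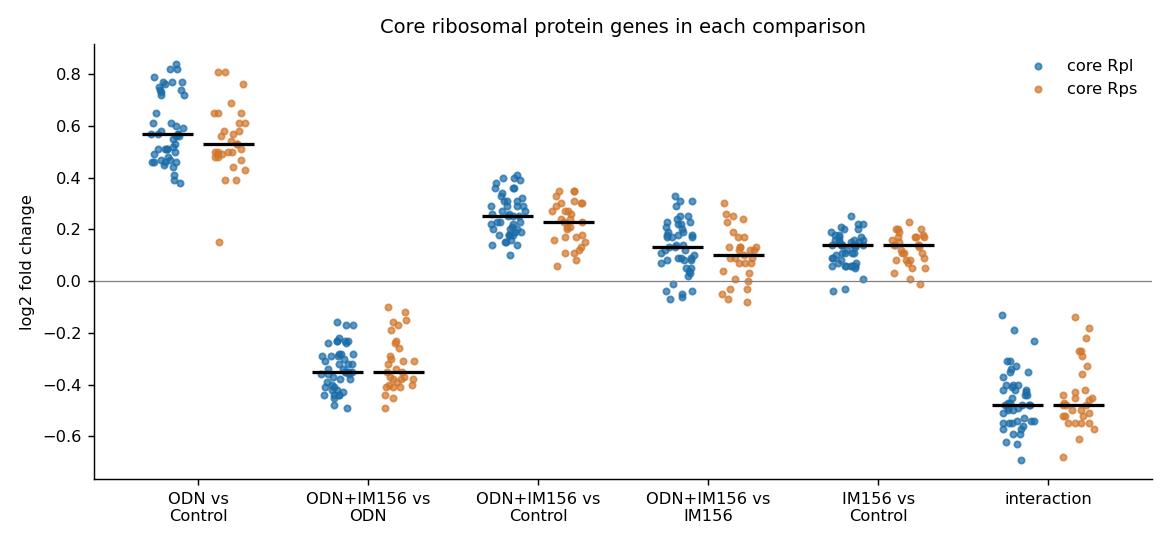
Log2 fold change of each core gene (points; sideways spread is only for legibility) in 6 comparisons, with the median of each subunit (bars). The ODN against Control values lie between 0.15 and 0.84, those of ODN+IM156 against ODN and of the interaction all lie below 0, and Rpl and Rps medians are close in every comparison.

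With both agents the family stood above the untreated cells, by less than with ODN alone. In ODN+IM156 against Control all 78 core genes had positive fold changes, with a median of 0.24 (Rpl 0.25, Rps 0.23). Only Rplp0 and Rpl39 were called, 2 of 78, where 1.25% of all genes were called higher. None was called lower, where 0.337% were. Rplp0 stood at 1051, 1297 and 1138 CPM with both agents, above the 827.6 to 943.8 of Control, a log2 fold change of 0.41 (SE 0.0965, edgeR adjusted p = 0.0334). Rpl39 stood at 942.1, 1013 and 981.9 against 748.8 to 778.8, a log2 fold change of 0.36 (SE 0.0863, edgeR adjusted p = 0.0406). At an unadjusted p below 0.05, 56 core genes were higher, against 7.46% of all genes, and none lower, against 5.44%. All libraries with both agents lay above all Control libraries for 51 core genes, against 10.2% of all genes, and below them for none, against 9.12%. The count of called members was 25 with DESeq2. As single libraries were left out it was 0 without Control replicate 2 or 3, IM156 replicate 2, or ODN+IM156 replicate 2 or 3. It was 1 without ODN+IM156 replicate 1, 3 without Control replicate 1, and 11, 8 and 12 without ODN replicates 1, 2 and 3. Counts over all genes in these fits are not set beside them, so the changes are not read as particular to the members.

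Adding ODN to IM156 gave smaller values still. In ODN+IM156 against IM156 no member was called, where 1.74% of all genes were called higher and 0.734% lower. The Rpl median was 0.13 and the Rps median 0.10. At an unadjusted p below 0.05, 21 core genes were higher, 15 Rpl and 6 Rps, against 8.21% of all genes, and none was lower, against 6.18%. Rpl28 had the highest value of the core genes, 0.33 (SE 0.102, edgeR adjusted p = 0.0926), followed by Rpl7a with 0.31 (SE 0.0892, edgeR adjusted p = 0.0716), Rplp0 with 0.31 (SE 0.0964) and Rps2 with 0.30 (SE 0.0922). DESeq2 called 5 members higher here. It also called more genes higher over the whole table than edgeR did, so this is not read as particular to the members.

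The interaction, which is the effect of IM156 in ODN-treated mice minus its effect in untreated mice, was negative for all 78 core genes. The median was -0.48 in both subunits (range -0.69 to -0.13), against -0.01 over all genes. No gene of the table was called by edgeR (0%), and the smallest adjusted p among members was 0.154. At an unadjusted p below 0.05, 72 of 78 core genes were lower, 44 Rpl and 28 Rps, against 6.86% of all genes, and none was higher, against 5.4%. DESeq2 called 51 members lower, among 109 genes in all, and the edgeR fit called 41 without ODN replicate 3, among 162 genes in all, and 0 members without any other single library. This contrast uses the same Control and ODN libraries as the comparisons above, so its values are not independent of theirs.

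The lowest interaction values were those of Rpl35, -0.69 (SE 0.159), and Rps20, -0.68 (SE 0.157). Rpl30 had the smallest p, with -0.62 (SE 0.127, edgeR adjusted p = 0.154). Rpl7a, Rps2 and Rps27 were near 0 for their subunits, with -0.13, -0.14 and -0.18, each over 3 scaled MADs from the median. The scaled MADs, 0.102 for Rpl and 0.086 for Rps, were below the median SEs of 0.133 and 0.132. Rpl7a stood at 248.5, 242.1 and 221 CPM in Control, 327.3, 335.9 and 304.8 in ODN, 218.2, 221.7 and 250.7 with IM156 and 266.9, 312.4 and 279.2 with both. Its ODN and ODN+IM156 ranges thus overlapped, which those of Rpl35 did not.

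Other genes of translation and ribosome assembly are given by list, and the lists were not tested against each other. Among 28 other genes known for TOP mRNAs, mostly translation factors, 20 were called higher in ODN against Control and none lower, where 7.34% of all genes were called higher and 3.25% lower. The list's median was 0.47. Eef1b2, an exchange factor for elongation, had means of 980 ± 49.6 CPM in Control and 1619 ± 152 in ODN (SD, n = 3), and rose by 0.72 (SE 0.0899, edgeR adjusted p = 5.6e-05). Eef1a1, Npm1 and the small RNA host Gas5 rose by 0.64, 0.65 and 0.61. The list's median in ODN+IM156 against ODN was -0.27 with 0 called, 27 of 28 being negative.

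Fau, which encodes ribosomal protein S30 fused to a ubiquitin-like domain and lies outside the symbol rule, rose by 0.29 (SE 0.0891), below every called core gene.

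Of 49 tested genes of ribosome assembly (biogenesis) 2 rose, 3 fell and 44 were not called, with a median of -0.15. Over all genes 7.34% were called higher and 3.25% lower, and these calls are too few to set against those shares. Fold changes were negative for 38 of the 49 and positive for 11, where 49.2% of all genes had positive ones. The list was not tested as a set. The number that fell was 10 without ODN replicate 3 and 7 with scaling by library totals, given here without the shares of all genes in those fits. Polr1c, a subunit of RNA polymerases I and III, rose by 0.57 (SE 0.114) and Nhp2, of the pseudouridylation complex, by 0.41 (SE 0.116). Rcl1 and the helicase Ddx10, both of small subunit processing, fell by 0.57 (SE 0.119) and 0.40 (SE 0.112) on the log2 scale, and Nop14 fell by 0.36.

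Of 77 mitochondrial ribosomal protein genes, which serve a separate ribosome, 8 rose and 1 fell, with a median of 0.15. Over all genes 7.34% were called higher and 3.25% lower. Fold changes were positive for 59 of the 77 and negative for 18. The number that rose was 4 without Control replicate 3 and 14 without ODN replicate 3, also given without the shares of all genes in those fits. Mrpl52 rose by 0.65 (SE 0.109). Among 21 regulators Mdm2 was the one called, where 3.25% of all genes were called lower, and it fell by 0.28 (SE 0.0884, edgeR adjusted p = 0.0471). Myc had 0.09 (SE 0.14), Mtor -0.05 (SE 0.119) and Larp1 -0.11 (SE 0.109), and none of these passed. Larp1 in ODN+IM156 against ODN had 0.39 (SE 0.108, edgeR adjusted p = 0.081).

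**Figure D5:**
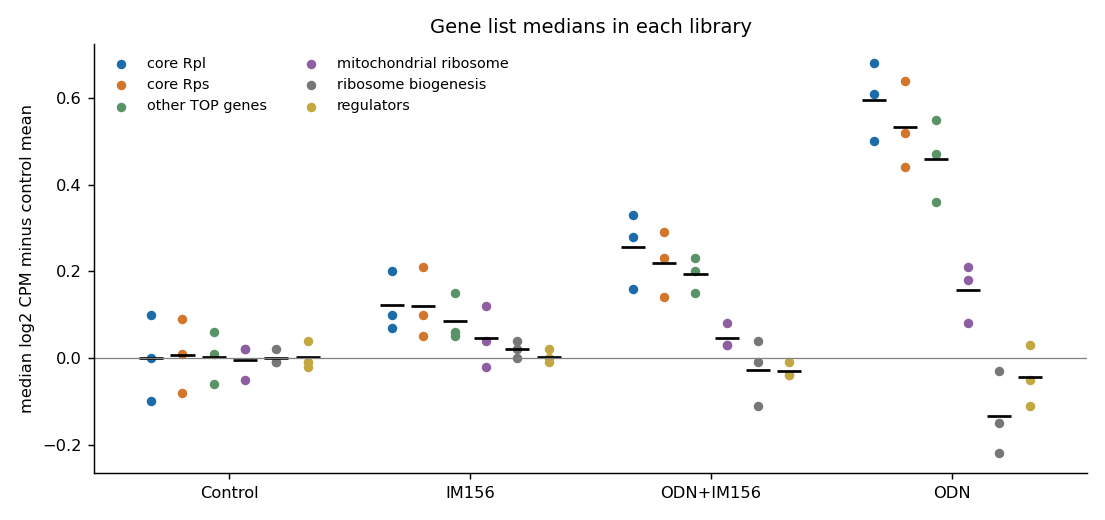
Median log2 CPM minus the Control mean in each library (points) for core Rpl, core Rps and 4 other gene lists, by group, with the mean of 3 libraries (bars). Core genes and other TOP genes are highest in ODN, the mitochondrial ribosome less so, and the biogenesis median lies below 0 in all 3 ODN libraries.

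The counting of short, repeated genes limits single values. Of the 88 members 52 have at least 1 other annotated gene, often a processed pseudogene, that matches 100 or more of their last 200 bases at 95% identity or above. The handling of reads that fit several places is not given in the sources used here. The 31 core genes with no such copy were all called higher in ODN against Control, with a median of 0.55, against 0.56 for the 47 with a copy. The medians in ODN+IM156 against ODN were -0.32 and -0.36. Rpl37 and Rpl37rt are among the 31 although they share 344 bases at 99.7% identity. That match ends 462 bases before the 3′ end of the Rpl37 transcript, outside the stretch compared, so the 31 are not free of all copies.

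In the GENCODE annotation 13 members share exonic bases with a protein-coding gene read from the other strand, and whether the counting used strand is not given. Cand2, known from muscle, overlaps Rpl32 by 53 exonic bases and was listed with 67.3% as many counts as Rpl32. Its log2 fold change in ODN against Control was 0.85 (SE 0.112), beside 0.82 for Rpl32, and -0.46 in ODN+IM156 against ODN, beside -0.44. Wdr38 overlaps Rpl35 by 821 bases, was listed with 27.1% of its counts, and had 0.83 (SE 0.107) beside 0.82 for Rpl35. Without knowledge of the strand, reads of these partners cannot be told apart.

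The size of the difference also moved when an offset for transcript length was used. The median annotated transcript was 772 bases for core genes and 2260 for all matched rows. With an offset for transcript length in each library, an alternative chosen after seeing the data, the core median was 0.40 in ODN against Control with 70 members called, -0.23 in ODN+IM156 against ODN and -0.33 in the interaction. Rps27 and Rps27rt then had -0.10 and -0.05 in ODN against Control. The share of all genes called with this offset is not set beside the 70 members. A relation between length and fold change was not tested.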

How the data were processed

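Reads from 12 libraries of splenic B cells, 3 per group, had been made with the Lexogen QuantSeq 3′ kit from total RNA isolated with TRIzol, per the labels' protocols. Such a library reads the 3′ end of polyadenylated transcripts, so levels are not divided by length. Bowtie2, bedtools and edgeR, and the builds GRCm38 and mm10, come from the submitters' processing notes. Versions, annotation, strand rule and the treatment of reads with several places are not given in the sources used here. The deposited table holds whole-number counts per gene, which were used for every test. It also holds the authors' normalized log2 values, their linear fold ratios and their p-values, which were read but entered no test.

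Counts were fitted in R 4.3.3 with edgeR 4.0.16 (TMM scaling, filterByExpr, quasi-likelihood F-test, all 12 libraries in 1 model of 4 group means, 8 residual degrees of freedom), and p-values were adjusted by Benjamini-Hochberg over 11857 genes. Calls were made where the adjusted p was under 0.05. The table has 23282 rows, 5883 of them without a count in any library. The tested genes had a median of 258 counts per library. CPM were computed with edgeR on TMM-scaled library sizes, and per-library log2 values had 0.5 CPM added. Members and gene lists were chosen with earlier results of these data known, so no count over them is independent support.

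Named genes were, per comparison, the 5 called Rpl and 5 called Rps of largest absolute fold change (with fewer than 5 called, the 3 of smallest p), members over 3 scaled MADs from their subunit's median, core genes without the call that most had, paralogs with their parents, genes of a described role, and up to 4 called genes of each pathway list with Myc, Mtor and Larp1. Cand2, Wdr38, Xist, the Y-linked genes, Fau, Nop14, Rpl37rt and the genes of the closing observations were named after their values were seen. The same holds for Rps9 and Rpl28 in ODN+IM156 against ODN and for Rpl35 in the interaction. Transcript similarity was taken with blastn 2.17.0 from GENCODE release 21 for the mouse, and start windows and their coordinates from RefSeq (GRCm38.p6). Alternatives were other scalings, filters, a robust fit, a replicate block, fits of the compared groups alone, DESeq2 1.42.0 and leaving out each library. Added after seeing the data were a transcript-length offset and members without a similar copy. The fitting script was tested on simulated data. Single values of a few genes are not reported here.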

Additional observations from a re-analysis of the deposited data

How the results depend on the processing

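In ODN against Control 70 to 81 members were called higher and none lower under the alternatives run, with the core median between 0.40 and 0.60, lowest with the offset for transcript length. That offset, chosen after seeing the data, also gave core medians of -0.23 in ODN+IM156 against ODN and -0.33 in the interaction. Depth limits Rpl39l and Rps4l, and 3 libraries a group limit every call. Members called lower in ODN+IM156 against ODN, 0 in the reported fit, numbered 51 with no filter beyond 1 count, 31 with the robust fit and 56 with DESeq2, and those in the interaction, also 0, numbered 42 with no filter and 51 with DESeq2. Members called higher in ODN+IM156 against Control, 2 in the reported fit, numbered 5 with DESeq2 size factors in edgeR, 1 with library totals alone, 4 with TMM without member rows, 6 without the Rn45s row, 15 with no filter, 5 with a filter of 10 counts in 6 libraries, 8 with the robust fit, 18 with the compared groups fitted alone, 25 with DESeq2 and 5 with the length offset. In ODN+IM156 against IM156 they numbered 0, and 2 with no filter, 10 with the compared groups alone, 5 with DESeq2 and 2 with the length offset. For several of these fits no count over all genes is given here. Their member counts are not read as particular to the members. Over all genes in ODN against Control, 870 were called higher and 385 lower, and scaling by library totals alone gave 695 and 720, with the median of all genes at -0.07. In the other comparisons the reported fit and DESeq2 called, higher and lower, 6 and 2 against 143 and 230 (ODN+IM156 against ODN), 148 and 40 against 241 and 83 (ODN+IM156 against Control), 206 and 87 against 296 and 142 (ODN+IM156 against IM156), and 0 and 0 against 42 and 109 (interaction). With no filter these counts were 219 and 445, 402 and 129, 466 and 186, and 104 and 172. IM156 against Control gave 0 and 0, and 18 and 35 with no filter and 3 and 3 with its groups fitted alone. Fitting the compared groups alone also gave 490 and 108 in ODN against Control, 0 and 1 in ODN+IM156 against ODN, 301 and 95 in ODN+IM156 against Control and 590 and 302 in ODN+IM156 against IM156, and the robust fit gave 42 and 82 in ODN+IM156 against ODN. The cause of these differences was not tested.

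Replicate numbers are shared by the groups but did not pair the libraries: same-numbered libraries had correlations of -0.1 to 0.0789, and 2 of 12 libraries lay closest to their own number. With the replicate block 80 members were called higher in ODN against Control, and 0 in ODN+IM156 against Control. Counts over all genes in this fit are not set beside them, so they are not read as particular to the members.

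Some values that did not pass the test turned sign. With library totals alone Rps19bp1 had -0.04 in ODN against Control, and in ODN+IM156 against IM156 Rpl36al had -0.01 and Rpl22l1 -0.02. With the length offset, ODN against Control gave -0.13 for Rps19bp1, -0.05 for Rps27rt, -0.10 for Rps27 and -0.01 for Rps4l. Against ODN, ODN+IM156 gave 0.07 for Rps27 and 0.04 for Rps27rt. Against Control it gave -0.00 for Rps27rt, -0.02 for Rps27, -0.03 for Rps4l and -0.04 for Rps27l. The interaction gave 0.01 for Rpl7a, 0.06 for Rps27, 0.04 for Rps4l and 0.01 for Rps27rt.

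With single libraries left out, called members ranged from 0 to 54 in ODN+IM156 against ODN, 0 to 41 in the interaction, 0 to 12 in ODN+IM156 against Control and 0 to 3 in ODN+IM156 against IM156. These ranges are given without counts over all genes and are not read as particular to the members. The Rpl median minus the Rps median ranged from 0.015 to 0.072 in ODN against Control, -0.011 to 0.019 in IM156 against Control, -0.023 to 0.005 in ODN+IM156 against ODN, -0.002 to 0.052 in ODN+IM156 against Control, 0.030 to 0.056 in ODN+IM156 against IM156 and -0.015 to 0.013 in the interaction. Single genes that crossed 0 were Rps19bp1 in ODN against Control (-0.07 to 0.12), and in IM156 against Control Rps4l (-0.25 to 0.17), Rpl7l1 (-0.06 to 0.15) and Rpl39 (-0.01 to 0.12). For ODN+IM156 against Control they were Rps27l (-0.06 to 0.09), Rpl39l (-1.89 to 0.43), Rps4l (-0.08 to 0.15) and Rps27 (-0.01 to 0.10). In ODN+IM156 against IM156 they were Rpl22l1 (-0.05 to 0.10), Rps4l (-0.15 to 0.27), Rps27 (-0.10 to 0.01), Rps27l (-0.01 to 0.14) and Rps27rt (-0.07 to 0.01). Rps4l ranged from -0.32 to 0.01 in ODN+IM156 against ODN and from -0.29 to 0.13 in the interaction.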

Other observations

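ODN replicate 3, the library without Xist, had the lowest core medians of the ODN group, 0.50 for Rpl and 0.44 for Rps relative to Control on the log2 scale. Replicate 1 had 0.61 for Rpl and 0.52 for Rps, and replicate 2 had 0.68 and 0.64. For a few genes it was the highest of the 3 instead. Rps27 stood at 711.5 CPM in it, against 600.3 and 637.4, and Fau, which encodes ribosomal protein S30, at 1983 against 1691 and 1832. These are values of 1 library and were not tested.

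Genes opposite to a member differed in how they moved in ODN against Control. Arpc5l, which shares 62 exonic bases with Rpl35 and was listed with 43.3% of its counts, had a log2 fold change of 0.02 (SE 0.0836). Nkiras1, opposite Rpl15, had 0.06 (SE 0.0866), where Rpl15 had 0.65. Ccdc84, opposite Rps25 over 206 bases and listed with 29.8% of its counts, rose by 0.37 (SE 0.0863, edgeR adjusted p = 0.00797), where Rps25 rose by 0.54. Fam69a shares 953 bases with Rpl5, was listed with 21.9% of its counts and had 0.28 (SE 0.0897, edgeR adjusted p = 0.0535). Tbc1d8, opposite Rpl31 over 420 bases and listed with 2.57% of its counts, rose by 0.64 (SE 0.147, edgeR adjusted p = 0.00706). Rpl31 rose by 0.74. Trappc4, also opposite Rps25, had -0.19 (SE 0.124). The remaining pairs are not listed here.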
